A study of Mus musculus with 16 samples.

Results

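The 10 genes Acly, Acaca, Fasn, Scd1, Scd2, Fads1, Fads2, Srebf1, Abca1 and Mylip, which serve fatty acid synthesis and desaturation or are targets of the liver X receptors (LXR), were followed through bulk RNA-seq libraries of mouse hematopoietic stem cells (HSCs). They were chosen by name from the symbols of the count table and are 10 of its 25239 genes. All 10 passed the filter on low counts, as did 14124 genes in total. The set holds 7 enzymes: 3 carry carbon from citrate to palmitate and 4 place double bonds in fatty acids.

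Each of the 16 libraries came from bone marrow HSCs of mice aged 4 to 6 months, either with an intact gene for the adhesion receptor P-selectin (Selp wild type, WT) or with a Selp knockout (KO). Cells sequenced directly after sorting are called fresh here (3 WT and 2 KO libraries). Cultured cells received either vehicle (3 WT and 3 KO) or the P-selectin ligand PSGL-1 at 125 ng/mL for 24 hours (2 WT and 3 KO), in StemSpan medium with 10% fetal calf serum and the cytokines SCF, IL-11 and Flt-3 ligand. The sources used here do not give the knockout allele, the strain or how long vehicle cultures were kept. Nor do they say if each replicate had its own mouse, and p-values therefore cover the spread between libraries alone, which may be technical.

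Fatty acid synthesis starts when Acly, the ATP-citrate lyase, releases acetyl-CoA from citrate in the cytosol; Acaca, an acetyl-CoA carboxylase, turns it into malonyl-CoA, and Fasn, the fatty acid synthase, builds palmitate from both. Scd1 and Scd2 are stearoyl-CoA desaturases, which make monounsaturated fatty acids, and Fads1 and Fads2 are desaturases of polyunsaturated fatty acids. Srebf1 encodes a sterol regulatory element-binding protein (SREBP), a membrane-bound factor that is cut and released to switch on genes of lipid synthesis. LXRs are nuclear receptors that oxysterols activate: their targets include Srebf1, the cholesterol efflux transporter gene Abca1 and Mylip, which encodes a ubiquitin ligase that sends the LDL receptor to degradation.

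On GRCm38, the assembly also named mm10, all 4 desaturase genes lie on chromosome 19: Scd1 at chr19:44394455-44407879 (minus strand), Scd2 at chr19:44293674-44306864 (plus), Fads1 at chr19:10182888-10196877 (plus) and Fads2 at chr19:10062765-10101746 (minus). Chromosome 11 holds Acly at chr11:100476353-100528000 (minus), Acaca at chr11:84129672-84401651 (plus), Fasn at chr11:120805846-120824547 (minus) and Srebf1 at chr11:60199089-60222581 (minus). Abca1 lies at chr4:53030787-53159895 (minus) and Mylip at chr13:45389742-45412022 (plus). The GENCODE annotation places Gm11437 on the opposite strand within Acaca and the end of Rai1 on the opposite strand of Srebf1, and the sources used here do not name the strand setting of the counting. Reads from these pairs therefore cannot be told apart where they overlap.

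Windows of 250 bases upstream of the transcription start were given by RefSeq (GRCm38.p6) for 7 of the 10 genes, 9 windows in all, 3 of them for start sites of Srebf1; Scd1, Scd2 and Fads1 had none. The stretches below are shown because they hold near-identical letters in 3 genes of the set that did not behave alike in the libraries. GGTTACT followed, after any 2 bases, by CGG, a pattern of the type known from LXR response elements, was searched on both strands and is in capitals with 20 bases on either side, printed from the plus strand, while all 3 genes lie on the minus strand. The pattern was chosen after the windows had been read.
Abca1, chr4:53159928-53159979, bases 53 to 64 before the start: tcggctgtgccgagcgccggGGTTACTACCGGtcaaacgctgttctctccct
Fasn, chr11:120824738-120824789, bases 211 to 222 before the start: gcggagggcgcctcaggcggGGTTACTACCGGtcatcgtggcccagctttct
Srebf1, chr11:60210619-60210670, bases 168 to 179 before the third start site: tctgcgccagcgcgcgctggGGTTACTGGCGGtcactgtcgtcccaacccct
Srebf1, chr11:60210568-60210619, bases 117 to 128 before the third start site: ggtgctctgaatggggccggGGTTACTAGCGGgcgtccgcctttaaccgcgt
The pattern was in 3 of the 9 windows of the set and in 9 of all 32851 windows (0.0274%), which include those 3. As it was chosen from the windows of the set, these shares are not a test of enrichment. The exact direct repeat of AGGTCA with 4 bases between was in 0 of the 9 (0.0152% of all windows). Repeats that differ from AGGTCA in some letters were not searched. The Abca1, Fasn and first Srebf1 stretches above read GGGTTA, 4 bases, then CGGTCA, across the edges of the capitals. The sterol element TCAC, any 1 base, then CCAC was in 0 of the 9 (1.05%). CCAAT was in 4 of the 9 (33.8%) and GGGCGG in 6 of the 9 (32.7%). No exact match of these motifs overlapped the capitals shown. Counts per gene do not tell which Srebf1 start site was in use, and a match of letters is not a binding site.

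Levels are given as CPM, the usual share of the library total, and between genes as RPKM, which also divides by the kilobases of annotated exon. The libraries held 12590539 to 24690824 counts each, which puts the detection floor of 3 counts at 0.122 to 0.238 CPM; floors and intervals of counts cover counting error only. In WT PSGL-1 replicate 1 fewer genes were detected, 9035 against 11101 to 13480 in the others; results that rest on this sparse library are given with and without it. Selp itself was at 0 to 12.4 CPM in the 8 KO and 16.8 to 183 CPM in the 8 WT libraries. Summed HSC markers were at 2589 to 3363 CPM in fresh and 1480 to 2334 CPM in cultured libraries. A gene is called changed at an adjusted p under 0.05 in edgeR's quasi-likelihood test, with Benjamini-Hochberg adjustment over all 14124 genes, and differences are on the log2 scale with their standard error (SE).

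**Figure D1:**
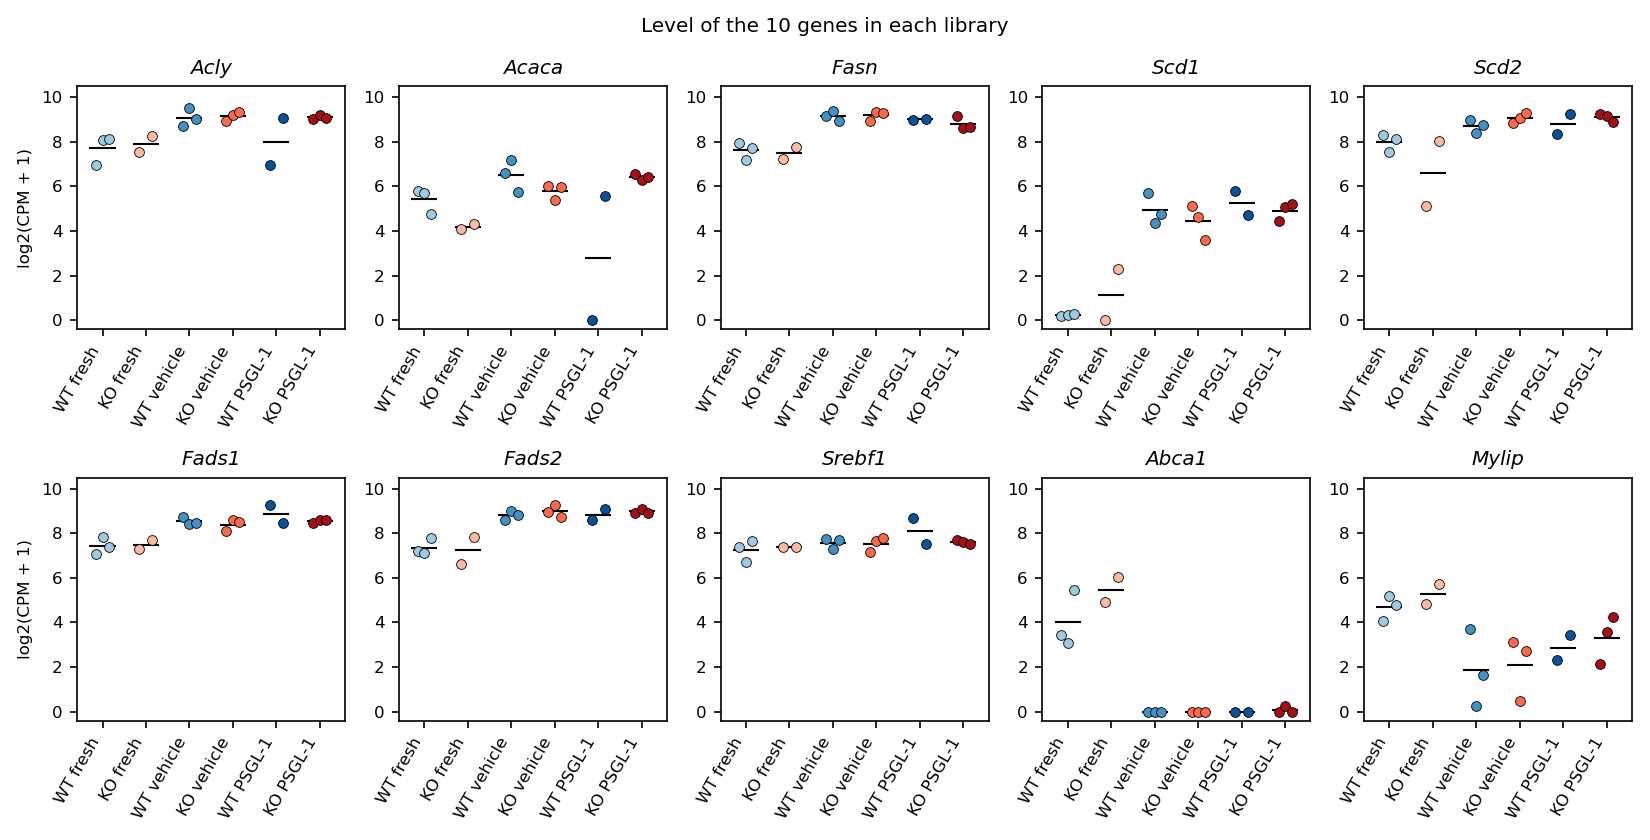
Level of each of the 10 genes, as log2(CPM + 1) on the vertical axis, in every library of the 6 groups; points are libraries and lines are group means. The points of Scd1, Scd2, Fasn, Fads1 and Fads2 are all higher in the 11 cultured than in the 5 fresh libraries, those of Abca1 are all lower, and Acaca is at 0 in WT PSGL-1 replicate 1.

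Vehicle culture against fresh cells shows how the set differed between cells kept in medium and cells taken from the marrow. Fasn and Fads2 rose in both genotypes, Fasn to 3.05 and 3.33 times and Fads2 to 2.87 and 3.26 times the fresh level in WT and KO. Scd1 and Fads1 were also called higher in WT, and Abca1, at 0 counts in all vehicle libraries, was called lower in KO. In the other genotype these genes differed in the same direction without overlap but were not called. The call rule thus picked 4 higher and 0 lower of the 10 genes in WT, where it picked 1.23% and 0.404% of all genes, and 2 higher and 1 lower in KO, where it picked 1.23% and 0.538%. Among the 7 enzymes and Srebf1 the median difference was 1.33 in WT and 1.71 in KO, against −0.07 and −0.02 over all genes tested. Groups did not overlap for 6 genes that were higher and 2 that were lower in WT (8.38% and 14.8% of all genes), and for 7 and 2 in KO (15.3% and 20.3%). Beside these edgeR calls, DESeq2 and limma voom both called Acly and Abca1 in WT and Scd2 in KO, and DESeq2 alone called Scd1 and Fads1 in KO. Both tools called more of all genes: DESeq2 5.69% in WT and 5.89% in KO, and limma voom 5.05% and 3.85%. The edgeR shares in either direction were 1.64% and 1.77%. In bulk RNA, fewer cells of a type and less RNA per cell cannot be told apart.

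Fasn stood at 245, 143 and 208 CPM in the fresh WT libraries and at 149 and 213 CPM in the fresh KO libraries. After vehicle it stood at 570, 658 and 483 CPM in WT and at 484, 651 and 621 CPM in KO. Every cultured library was thus above every fresh one. By edgeR the difference was 1.61 (SE 0.23, adjusted p = 0.00195) in WT and 1.74 (SE 0.27, adjusted p = 0.00293) in KO. The WT call held without each library in turn; the KO call was lost without KO fresh replicate 1 (adjusted p = 0.0663).

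Acly, the source of cytosolic acetyl-CoA, was at 122, 268 and 277 CPM in fresh WT libraries and at 183 and 301 CPM in the fresh KO ones. After vehicle its levels were 413, 735 and 513 CPM in WT and 484, 586 and 641 CPM in KO, so that vehicle and fresh libraries did not overlap in either genotype. It was not called, with differences of 1.42 (SE 0.42, edgeR adjusted p = 0.133) in WT and 1.29 (SE 0.48, adjusted p = 0.260) in KO. Without WT PSGL-1 replicate 1, a library of neither group, which moved the number of genes tested to 15095 as well as the estimate of spread, Acly was called in both (edgeR adjusted p = 0.00938 and 0.0308).

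Acaca, which makes the malonyl-CoA that Fasn uses, was among the lowest genes of the set. Its levels were 53.7, 51.7 and 25.8 CPM in the fresh WT libraries, 15.9 and 18.7 CPM in the fresh KO ones, 95.2, 143 and 52.1 CPM in WT vehicle and 63.0, 41.2 and 62.5 CPM in KO vehicle. The WT groups overlapped and the KO groups did not. The difference was 1.24 (SE 1.07, edgeR adjusted p = 0.723) in WT and 1.72 (SE 1.26, adjusted p = 0.673) in KO, the latter called without WT PSGL-1 replicate 1 (adjusted p = 0.0417).

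Scd1 went from the edge of detection to a clear level. Fresh WT libraries held 0.146, 0.159 and 0.215 CPM, which is 2, 2 and 3 counts, and fresh KO libraries held 0 and 3.86 CPM. Vehicle libraries held 50.5, 19.2 and 26.2 CPM in WT and 34.0, 24.0 and 11.1 CPM in KO. All 6 vehicle libraries were above all 5 fresh ones, while the 2 fresh KO libraries differed from each other by 66 counts against 0. The WT difference was 7.55 (SE 1.46, edgeR adjusted p = 0.0155), a ratio of summed counts of 187 with an exact 95% interval of 90.7 to 467. The KO difference of 3.67 (SE 1.41, edgeR adjusted p = 0.277) was not called; edgeR called it without KO fresh replicate 2, when the remaining fresh library had 0 counts (adjusted p = 0.00692), and DESeq2 called it with all libraries (3.63, adjusted p = 0.0180). The WT call was lost without any 1 of the WT fresh libraries (edgeR adjusted p = 0.0759 to 0.0984).

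Scd2, the other stearoyl-CoA desaturase, was already high in fresh cells, at 311, 183 and 279 CPM in WT and 34.2 and 265 CPM in KO. After vehicle it was at 496, 334 and 427 CPM in WT and 460, 540 and 632 CPM in KO. The groups did not overlap, but neither difference was called, at 0.80 (SE 0.47, edgeR adjusted p = 0.513) in WT and 1.95 (SE 0.56, adjusted p = 0.106) in KO. KO fresh replicate 1 alone held the low value, and with it as the only fresh KO library the KO difference was 3.98. Scd1 counts were 0.0469% to 0.0870% of the Scd2 counts in fresh WT, 0% and 1.46% in fresh KO and 1.76% to 16.6% in cultured libraries. The 2 genes share 145 of the 4888 stretches of 50 bases in Scd1 transcripts (2.97%), so that reads there could have been split or lost in counting.

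Fads1 was at 132, 228 and 164 CPM in fresh WT libraries and 154 and 206 CPM in the fresh KO ones. In vehicle libraries it was at 428, 340 and 347 CPM in WT and 270, 384 and 358 CPM in KO, above all fresh ones. Its differences were 1.19 (SE 0.24, edgeR adjusted p = 0.0183) in WT and 0.95 (SE 0.27, adjusted p = 0.102) in KO. Fads1 and Fads2 share none of their transcript stretches of 50 bases. The WT call of Fads1 was lost without WT fresh replicate 1 or 3 or WT vehicle replicate 1 or 3 (edgeR adjusted p = 0.0501 to 0.0877), and in KO it was called without WT PSGL-1 replicate 1 (adjusted p = 0.0335).

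Fads2, which acts before Fads1 on polyunsaturated fatty acids, was at 146, 136 and 219 CPM in the fresh WT libraries, at 96.8 and 230 CPM in the fresh KO ones, at 391, 503 and 447 CPM in WT vehicle and at 494, 621 and 418 CPM in KO vehicle. All vehicle libraries were again above all fresh ones. It rose by 1.52 (SE 0.27, edgeR adjusted p = 0.0105) in WT and 1.71 (SE 0.32, adjusted p = 0.0117) in KO. The WT call was lost without WT fresh replicate 1 or 2 (edgeR adjusted p = 0.0524 and 0.0684) and the KO call without KO fresh replicate 1 (adjusted p = 0.140) or in a fit of the 2 KO groups alone (adjusted p = 0.0618).

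Srebf1, the regulator of the set, stood at 166, 103 and 199 CPM in the fresh WT libraries, 166 and 167 CPM in the fresh KO ones, 211, 157 and 206 CPM in WT vehicle and 142, 200 and 223 CPM in KO vehicle. Fresh and vehicle levels overlapped in both genotypes. The difference was 0.39 (SE 0.30, edgeR adjusted p = 0.661) in WT and 0.21 (SE 0.34, adjusted p = 0.939) in KO.

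**Figure D2:**
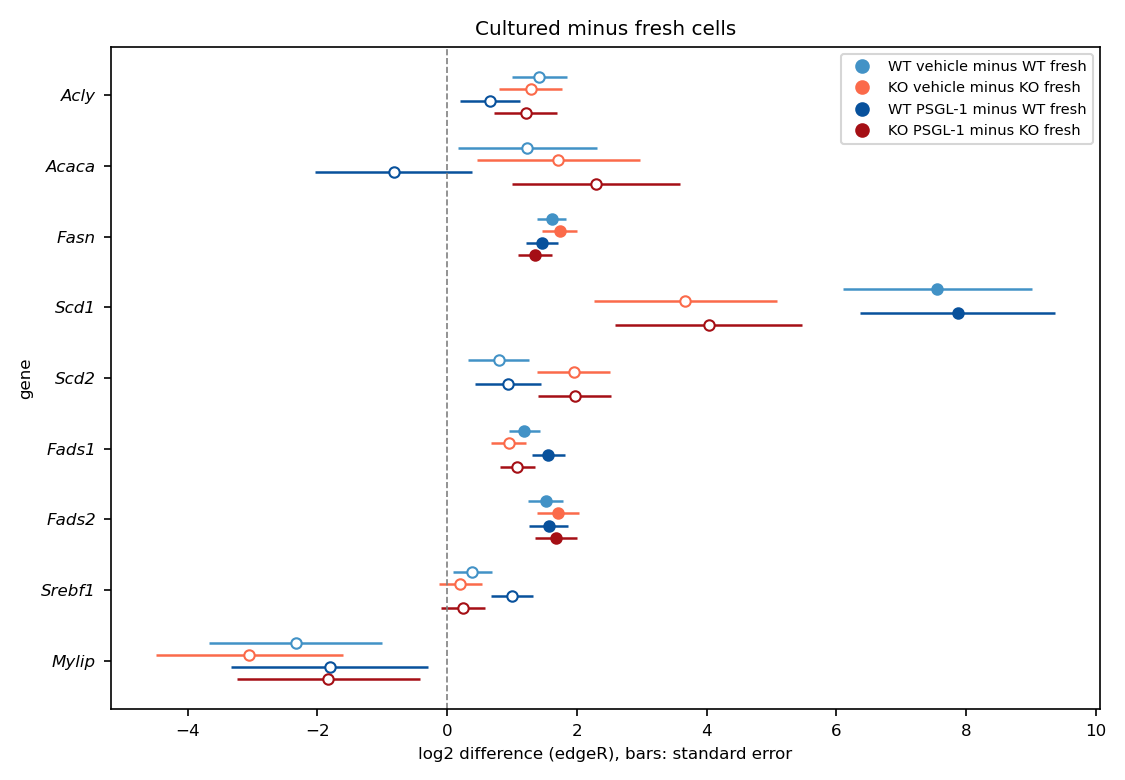
Difference between cultured and fresh cells (horizontal axis, log2, edgeR) for 9 genes, with bars of 1 standard error, for vehicle and PSGL-1 cultures of each genotype; filled points passed an adjusted p under 0.05. Abca1 is not drawn because it had 0 counts in both vehicle groups. Fasn and Fads2 are filled in all 4 comparisons, and Scd1 lies at 7.55 and 7.87 in WT.

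Abca1 moved the other way. It stood at 9.98, 7.55 and 42.4 CPM in fresh WT libraries and at 28.8 and 65.3 CPM in the fresh KO ones, and it had 0 counts in all 6 vehicle libraries. No vehicle library held a single read of this transporter gene, which fresh libraries held at 95 to 1116 counts. The fresh WT mean of 20.0 CPM, raised by the library at 42.4 CPM, was 102 times the mean floor of 3 counts per vehicle library. In KO the fresh mean of 47.0 CPM was 263 times that floor. By edgeR the fall was called in KO (adjusted p = 0.0372) and missed the threshold in WT (adjusted p = 0.0540), where it was called without WT PSGL-1 replicate 1 (adjusted p = 0.0160). The KO call was lost without either KO fresh library or any 1 of the KO vehicle libraries (edgeR adjusted p = 0.0703 to 0.123), and with the replicate number as a block (0.0946).

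Mylip was at 15.5, 35.3 and 26.5 CPM in fresh WT libraries and 27.0 and 51.1 CPM in the fresh KO ones. After vehicle it was at 12.05, 0.189 and 2.12 CPM in WT and 7.74, 0.371 and 5.51 CPM in KO, below all fresh libraries but uneven among themselves. The differences of −2.34 (SE 1.33, edgeR adjusted p = 0.500) in WT and −3.05 (SE 1.44, adjusted p = 0.434) in KO were not called.

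Some markers of other cell types were lower in cultured libraries, as Abca1 was, and others were not. The summed complement genes C1qa, C1qb and C1qc, which macrophages express, were at 28.3, 21.9 and 6.08 CPM in fresh WT libraries and 33.0 and 1.34 CPM in the fresh KO ones, and at 0 in all 11 cultured libraries. In the same order of fresh libraries, Abca1 was at 9.98, 7.55 and 42.4 CPM in WT and 28.8 and 65.3 CPM in KO. Apoe, another LXR target, was at 721, 1014 and 962 CPM in WT and 1693 and 907 CPM in KO. The 9 macrophage markers, of which Marco was at 0 throughout, summed to 17.4 to 43.8 CPM in fresh and 3.20 to 40.1 CPM in cultured libraries. Cd68, Mertk and Mrc1 of this list had higher means in cultured than in fresh libraries (18.9 against 9.68, 1.75 against 1.35 and 0.808 against 0.122 CPM). Csf1r (1.35 against 3.20 CPM) and Adgre1 (0 against 0.0351 CPM) had lower ones, as the C1q genes had. Of 8 adipocyte markers, 5 (Adipoq, Cfd, Lep, Pparg and Cidec) were at 0 in every library, and the sum was 0 to 5.35 CPM in fresh and 0 in cultured libraries. Summed markers of T and NK cells, 4 of which (Cd3e, Cd3d, Cd3g and Cd8a) were at 0, ran from 40.9 to 103 CPM in fresh and 0 to 25.6 CPM in cultured libraries. Those of granulocytes and monocytes (8 genes, Ly6g at 0) ran from 293 to 711 and 16.5 to 305 CPM, and those of erythroid cells (8 genes, 3 hemoglobin genes at 0) from 34.5 to 157 and 4.30 to 52.9 CPM. B cell markers (6 genes, Ms4a1 and Ebf1 at 0) gave 38.2 to 56.4 and 3.81 to 62.0 CPM, and those of megakaryocytes and platelets (8 genes, Gp6 at 0) 1022 to 1629 and 607 to 1760 CPM. Endothelial and stromal markers gave 41.2 to 154 and 42.1 to 98.9 CPM. The part of these cells in the results was not tested.

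Cultures with PSGL-1 give the same contrast with fresh cells in other libraries, although the fresh libraries are shared with the vehicle comparisons. By edgeR over all libraries, Fasn and Fads2 rose in both genotypes again, and Scd1 and Fads1 in WT. In fits of the compared groups alone all 4 WT calls (edgeR adjusted p = 0.270 to 0.333) and both KO calls (0.0934 for Fads2 and 0.0887 for Fasn) were lost and Acaca was called in KO (0.0472), and limma voom did not call Fads1, Fads2 or Fasn in WT (adjusted p = 0.0922 to 0.113). The calls were 4 higher and 0 lower in WT (0.906% and 0.354% of all genes) and 2 higher and 0 lower in KO (1.34% and 0.658%). Groups did not overlap for 5 genes that were higher and 2 lower in WT (9.69% and 20.4%) and for 8 and 2 in KO (14.8% and 19.2%). The median over the 7 enzymes and Srebf1 was 1.23 in WT and 1.51 in KO, against −0.22 and −0.01 over all genes.

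Fasn was at 506 and 525 CPM in WT PSGL-1 and at 562, 391 and 401 CPM in KO PSGL-1. It rose over fresh cells by 1.46 (SE 0.25, edgeR adjusted p = 0.00826) and 1.35 (SE 0.26, adjusted p = 0.0135). Fads2, at 391 and 535 CPM in WT and 482, 547 and 481 CPM in KO, rose by 1.56 (SE 0.30, edgeR adjusted p = 0.0159) and 1.68 (SE 0.32, adjusted p = 0.0124). Both genes were above every fresh library in all 5 cultures. Scd1 was at 54.5 and 25.6 CPM in WT and 21.1, 32.3 and 35.5 CPM in KO, with differences of 7.87 (SE 1.5, edgeR adjusted p = 0.0160) and 4.03 (SE 1.44, adjusted p = 0.218). The WT ratio of summed Scd1 counts was 228 (exact 95% interval 110 to 567). Fads1 was at 614 and 353 CPM in WT and 351, 383 and 382 CPM in KO, with differences of 1.56 (SE 0.26, edgeR adjusted p = 0.00682) and 1.08 (SE 0.27, adjusted p = 0.0537). In WT, Scd1 lost its call without any 1 of the fresh libraries (edgeR adjusted p = 0.0743 to 0.0897) and Fads2 without fresh replicate 1 or 2 (0.0747 and 0.0823). With the sparse WT PSGL-1 replicate 1 as the only library of its group, the Srebf1 difference was 1.43. Acaca and Abca1, both at 0 counts there, were then at −12.4 and −11.3. Fads1 lost its call without this sparse library, at a difference of 1.12. In KO, Fasn and Fads2 lost theirs without KO fresh replicate 1 (edgeR adjusted p = 0.200 and 0.162) and Fasn without KO PSGL-1 replicate 1 (0.0636), while Scd1 and Scd2 gained one without KO fresh replicate 2, and 6 genes (3.87% of all genes) were called without WT PSGL-1 replicate 1.

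Abca1 had 0 counts in both WT PSGL-1 libraries and in 2 of the 3 KO PSGL-1 libraries, and 3 counts (0.205 CPM) in KO PSGL-1 replicate 2. Its fresh WT mean was 123 times the mean floor of 3 counts in the WT PSGL-1 libraries. In KO the ratio of fresh to PSGL-1 counts was 751, with an exact 95% interval of 257 to 3647. Neither difference passed edgeR's threshold (adjusted p = 0.109 in WT and 0.0698 in KO). Mylip was at 3.93 and 9.76 CPM in WT and at 3.40, 10.7 and 17.7 CPM in KO, where its highest library exceeded the lowest fresh WT library but no fresh KO library. Its differences were −1.81 (SE 1.52, edgeR adjusted p = 0.606) and −1.83 (SE 1.40, adjusted p = 0.672). Scd2, at 328 and 601 CPM in WT and 614, 569 and 478 CPM in KO, was not called either, at 0.94 (SE 0.51, edgeR adjusted p = 0.443) and 1.97 (SE 0.56, adjusted p = 0.0953). In WT the differences of Acly at 0.66 (SE 0.46, edgeR adjusted p = 0.522), Acaca at −0.82 (SE 1.21, adjusted p = 0.795) and Srebf1 at 1.00 (SE 0.33, adjusted p = 0.182) were not called. Without WT PSGL-1 replicate 1 they were 1.36, 0.16 and 0.32. In KO the differences were 1.21 for Acly (SE 0.48, edgeR adjusted p = 0.300), 2.30 for Acaca (SE 1.29, adjusted p = 0.523) and 0.24 for Srebf1 (SE 0.34, adjusted p = 0.895). Each of these genes was higher in KO PSGL-1 than in KO fresh libraries without overlap, but none was called.

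All 4 cultured groups were then averaged and set against both fresh groups, a comparison of 11 libraries with 5 that was added after the data had been seen and uses the same libraries. Averaged in this way, 6 genes were called higher (5.54% of all genes) and 1 lower (4.67%). Beside Scd1, Fads1, Fads2 and Fasn, the higher genes were Scd2 at 1.41 (SE 0.34, edgeR adjusted p = 0.0154) and Acly at 1.14 (SE 0.30, adjusted p = 0.0231). Abca1 was the lower one (edgeR adjusted p = 0.000703). Acaca at 1.11 (SE 0.75, edgeR adjusted p = 0.419), Srebf1 at 0.46 (SE 0.21, adjusted p = 0.180) and Mylip at −2.26 (SE 0.81, adjusted p = 0.0934) were not called. DESeq2 and limma voom also called Mylip, where they called 16.5% and 11.7% of all genes against 10.2% by edgeR. A group of 5 genes was higher in all 11 cultured libraries than in all 5 fresh ones (2.03% of all genes) and 1 was lower (3.46%). Fasn spanned 143 to 245 CPM in fresh and 391 to 658 CPM in cultured libraries, and Scd1 spanned 0 to 3.86 and 11.1 to 54.5 CPM. Acly lost its call without WT fresh replicate 1 or KO fresh replicate 1 (edgeR adjusted p = 0.0530 and 0.149). Acaca turned to −1.78 without WT PSGL-1 replicate 2 and was called higher without WT PSGL-1 replicate 1 (1.36, edgeR adjusted p = 0.00415). Srebf1 was called without WT PSGL-1 replicate 2 (edgeR adjusted p = 0.0275) and Mylip without WT vehicle replicate 1 (adjusted p = 0.0396).

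Per kilobase of exon, Fads2 had the highest mean in all 6 groups. In fresh WT cells the mean RPKM was 50.6 ± 13.7 for Fads2, 47.1 ± 12.2 for Scd2, 42.1 ± 16.5 for Acly and 36.2 ± 10.2 for Fads1 (SD, n = 3), values that did not differ beyond their spread. Srebf1 followed at 27.7 ± 8.69 and Fasn at 18.2 ± 4.72. Mylip was at 7.97 ± 3.07, Acaca at 2.56 ± 0.910, Abca1 at 1.93 ± 1.88 and Scd1, the lowest, at 0.0354 ± 0.00749. In WT vehicle cells Fads2 led at 136 ± 17.04 and Acly followed at 105 ± 31.3. Fads1 at 77.2 ± 10.3 and Scd2 at 76.7 ± 14.8 lay within each other's spread, and Fasn, at 52.1 ± 7.96, stood above Srebf1, at 34.0 ± 5.28. Scd1 at 6.53 ± 3.36 had moved up to Acaca at 5.67 ± 2.67, while Mylip at 1.48 ± 1.97 and Abca1 at 0 came last. These levels rest on gene models of the whole gene and not on the isoform in use.

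PSGL-1 was set against vehicle to ask what the ligand added to culture. No gene of the set was called in WT or KO by edgeR, DESeq2 or limma voom, and none had an unadjusted edgeR p under 0.05; edgeR called 0% of all genes in either genotype. The median over the 7 enzymes and Srebf1 was 0.09 in WT and 0.03 in KO. The PSGL-1 minus vehicle difference of Fasn was −0.15 (SE 0.25) in WT and −0.38 (SE 0.22) in KO, and that of Fads2 0.04 (SE 0.30) and −0.03 (SE 0.27). Scd1 differed by 0.32 (SE 1.19; −0.31 without WT PSGL-1 replicate 1) and 0.36 (SE 1.07) and Mylip by 0.53 (SE 1.41) and 1.22 (SE 1.29), so that differences of several fold could not have been seen for these 2 genes. Abca1 was at 0 counts in both WT groups.

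Acaca was the only gene of the set whose PSGL-1 and vehicle libraries did not overlap, in opposite directions in the 2 genotypes. In WT PSGL-1 it had 0 counts in replicate 1 and 45.8 CPM in replicate 2, below all WT vehicle libraries (8.10% of all genes were lower without overlap). In KO PSGL-1 it was at 91.5, 76.4 and 83.7 CPM, above all KO vehicle libraries (4.24% were higher). The differences were −2.06 (SE 1.28, edgeR adjusted p = 0.774) and 0.59 (SE 1.06, adjusted p = 1), and their difference between genotypes was 2.65 (SE 1.64, adjusted p = 1). The WT value rests on the sparse library, in which 5165 of the 14124 tested genes had 0 counts: without it the WT difference was −1.06 and the difference between genotypes 1.64 (edgeR adjusted p = 1 for both).

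In that library Acly was at 123 CPM against 531 CPM in WT PSGL-1 replicate 2 and 519, 580 and 532 CPM in KO PSGL-1, and Srebf1 at 410 CPM against 183 CPM and 205, 193 and 183 CPM. With it as the only WT PSGL-1 library, edgeR called 3 genes of the set between PSGL-1 and vehicle, when it called 19.7% of all genes: Acaca, Acly at −2.22 (adjusted p = 0.00172) and Srebf1 at 1.04 (adjusted p = 0.0370). Again with it alone, 3 genes were called between KO and WT with PSGL-1 (19.8% of all genes), 2 in the average over conditions (15.1%) and 2 in the PSGL-1 interaction (15.8%). Beside such shares of all genes nothing is read from these counts. Without it, no gene of the set was called in these 4 comparisons.

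**Figure D3:**
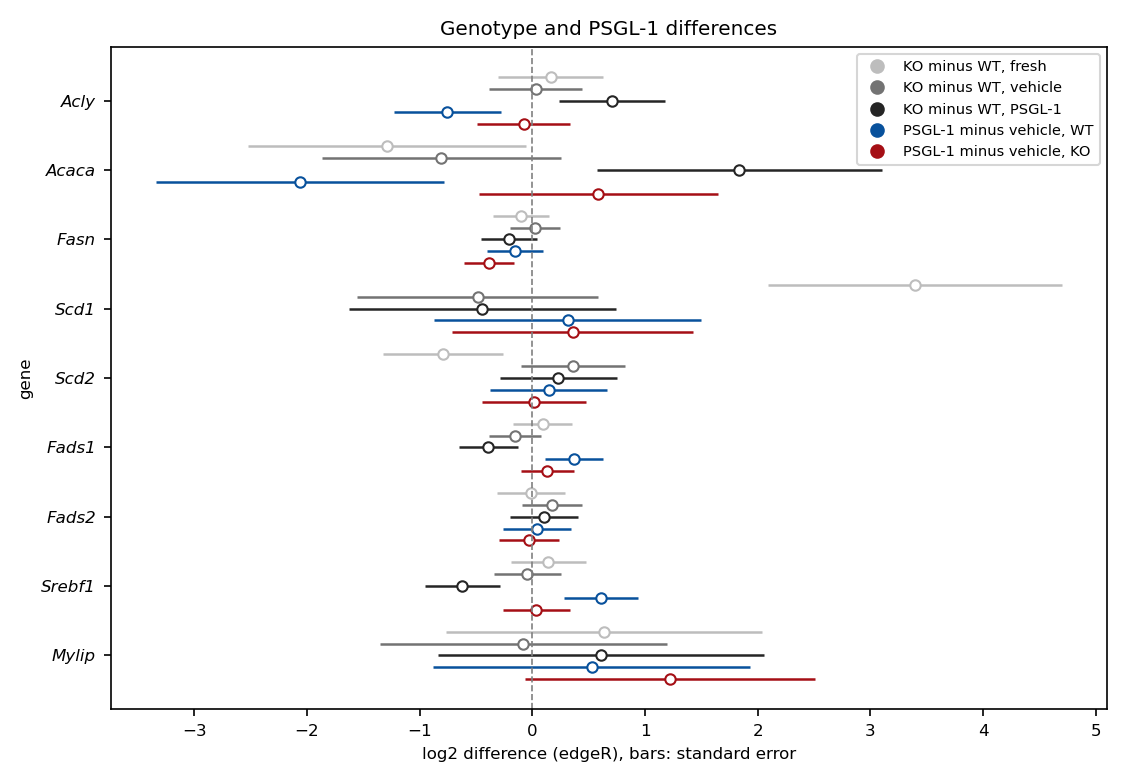
Differences (horizontal axis, log2, edgeR) for 9 genes between KO and WT in fresh, vehicle and PSGL-1 libraries, and between PSGL-1 and vehicle in each genotype, with bars of 1 standard error; no point passed an adjusted p under 0.05, so all are open. Bars of Fasn, Fads1 and Fads2 are short (SE 0.22 to 0.30), while those of Acaca, Scd1 and Mylip exceed 1.

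KO was set against WT in each condition to ask whether loss of Selp changed these genes. No gene of the set was called in fresh, vehicle or PSGL-1 libraries, nor in the average over the 3 conditions, by edgeR, DESeq2 or limma voom. In each of the 3 conditions edgeR called 0.00708% of all genes, which is 1 gene, and in the average 0.0354%. Fasn differed by −0.10 (SE 0.25) in fresh, 0.03 (SE 0.22) in vehicle and −0.21 (SE 0.25) in PSGL-1 cells. Fads2 differed by −0.01 (SE 0.30), 0.18 (SE 0.27) and 0.10 (SE 0.30), and Srebf1 by 0.14 (SE 0.33), −0.04 (SE 0.30) and −0.62 (SE 0.33; 0.06 without WT PSGL-1 replicate 1). In the average over conditions Fasn was at −0.09 (SE 0.14) and Fads1 at −0.15 (SE 0.15). Scd1 in fresh cells was the only gene with an unadjusted edgeR p under 0.05 (difference 3.39, SE 1.30, unadjusted p = 0.0198, adjusted p = 1); it rests on the 66 counts of KO fresh replicate 2, since KO fresh replicate 1 had 0. The Scd2 difference in fresh cells was −0.79. It was −2.82 without KO fresh replicate 2, which left KO fresh replicate 1 as the only fresh KO library. Acaca was lower in both fresh KO libraries than in all fresh WT libraries (9.95% of all genes) and higher in KO than in WT with PSGL-1 (11.5%), without passing the test (−1.29, SE 1.23, adjusted p = 1, and 1.84, SE 1.26, adjusted p = 0.766). The latter was 0.85 without WT PSGL-1 replicate 1.

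Whether the response to culture or to PSGL-1 differed by genotype was tested with interaction terms. No gene of the set was called in either by edgeR, DESeq2 or limma voom, and edgeR called 0% of all genes in both. For the culture response Fasn gave 0.13 (SE 0.34), Fads2 0.19 (SE 0.40) and Fads1 −0.25 (SE 0.35). The culture responses of Scd1 and Fads1, which edgeR called in WT only and DESeq2 in both genotypes, are therefore not shown to differ by genotype. The Scd1 interaction was −3.88 (SE 1.68, edgeR adjusted p = 1) and was the only one with an unadjusted p under 0.05. It had the opposite sign without KO fresh replicate 2, which left KO fresh replicate 1 as the only fresh KO library. The Scd2 interaction was then 3.19, against 1.16 with all libraries.

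Other genes of lipid metabolism, in 8 lists, place the set among its neighbours. Of 23 genes of cholesterol synthesis and uptake, 12 rose in WT and 12 in KO with vehicle, and none fell. Of all genes, 1.23% were called higher in each genotype. The medians of the list were 2.32 and 2.94 against −0.07 and −0.02 over all genes. Fdps, which makes farnesyl diphosphate, averaged 93.7 ± 20.2 CPM in fresh and 833 ± 79.2 CPM in vehicle WT libraries (SD, n = 3 each), and 47.3 ± 18.6 and 828 ± 143 CPM in KO (n = 2 and 3). Hmgcs1, the synthase before HMG-CoA reductase, averaged 34.2 ± 2.94 and 308 ± 72.9 CPM in WT, and 26.9 ± 6.50 and 349 ± 116 CPM in KO. Both rose in both genotypes. Sqle, the squalene epoxidase, rose by 2.45 and 2.94 and Cyp51, a lanosterol demethylase, by 2.82 and 3.24. These changes exceed those of Fasn and Fads2, although the difference between the genes was not tested.

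Of 6 genes of SREBP processing, the same 2 rose in both genotypes (1.23% of all genes in each) and none fell. Their median was 0.56 in WT and 0.81 in KO over the 6 genes. Insig1, which retains SREBPs in the endoplasmic reticulum and is itself their target, went from 37.2 ± 9.75 to 106 ± 27.9 CPM with vehicle in WT, and in KO from 47.8 ± 12.85 to 149.6 ± 33.9 CPM (differences 1.62 and 1.69, edgeR adjusted p = 0.0138 and 0.0213). Srebf2, the SREBP gene of cholesterol synthesis, went from 384 ± 15.99 to 725 ± 192 CPM with vehicle in WT, and in KO from 228 ± 86.4 to 583 ± 48.1 CPM (1.01 and 1.40, edgeR adjusted p = 0.0411 and 0.0126). Srebf1 was not called in either genotype.

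None of the 4 LXR and RXR receptor genes was called in the vehicle comparisons (median 0.59 in WT and −0.47 in KO). Of 11 other LXR targets, 7 were tested, and their median was −0.66 in WT and −0.06 in KO. Apoe, a lipoprotein component that accepts cholesterol, fell in WT from 899 ± 156 to 69.4 ± 71.3 CPM (−3.60, SE 0.83, edgeR adjusted p = 0.0415). In KO it was at 1300 ± 556 CPM in fresh and 114 ± 56.7 CPM in vehicle libraries (−3.50, SE 0.87, edgeR adjusted p = 0.0558). Averaged over the cultured groups, 3 of the 7 were called lower (4.67% of all genes) and none higher (5.54%). The 3 were Apoe, the sterol transporter gene Abcg1 at −3.16 (SE 0.65, edgeR adjusted p = 0.00617) and Smpdl3a at −2.11 (SE 0.51, adjusted p = 0.0169). Abcg1 and Smpdl3a were chosen after their values were seen. Of the 7 differences, 4 were below 0 and 3 above, with a median of −0.29 against −0.13 over all genes.

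Other genes of fatty acid metabolism were counted in the same way. Of 22 tested genes among 25 for other steps of synthesis, elongation and desaturation, none was called in WT or KO with vehicle. Their medians were 0.36 and 0.21 with genes at 0 counts in a whole group set to their bound or, where both groups were at or under the floor, left out. The elongase gene Elovl1 rose with PSGL-1 culture in WT (1.19, SE 0.27, edgeR adjusted p = 0.0426). Of 18 genes of acyl-CoA and glycerolipid synthesis, 1 rose in WT (1.23% of all genes) and none in KO (1.23%), with medians of 0.12 and −0.05. The 1 was Agpat5, an acyltransferase, at 0.89 in WT (SE 0.21, edgeR adjusted p = 0.0477). Of 16 tested genes of fatty acid oxidation, 1 fell in WT (0.404% of all genes) and none in KO (0.538%). The dehydrogenase gene Hadh fell in WT, at −1.27 (SE 0.27, edgeR adjusted p = 0.0281), and was at −0.79 in KO (SE 0.30, adjusted p = 0.265). The medians were −0.14 and −0.23. Of 7 tested lipid droplet genes none was called (−0.20 and −0.55). Averaged over the cultured groups, 3 of the 22 synthesis genes rose and 1 fell, 3 of the 18 acyl-CoA and glycerolipid genes rose, 2 of the 16 oxidation genes fell and 1 of the 7 lipid droplet genes fell, beside the 5.54% of all genes called higher and 4.67% called lower.

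**Figure D4:**
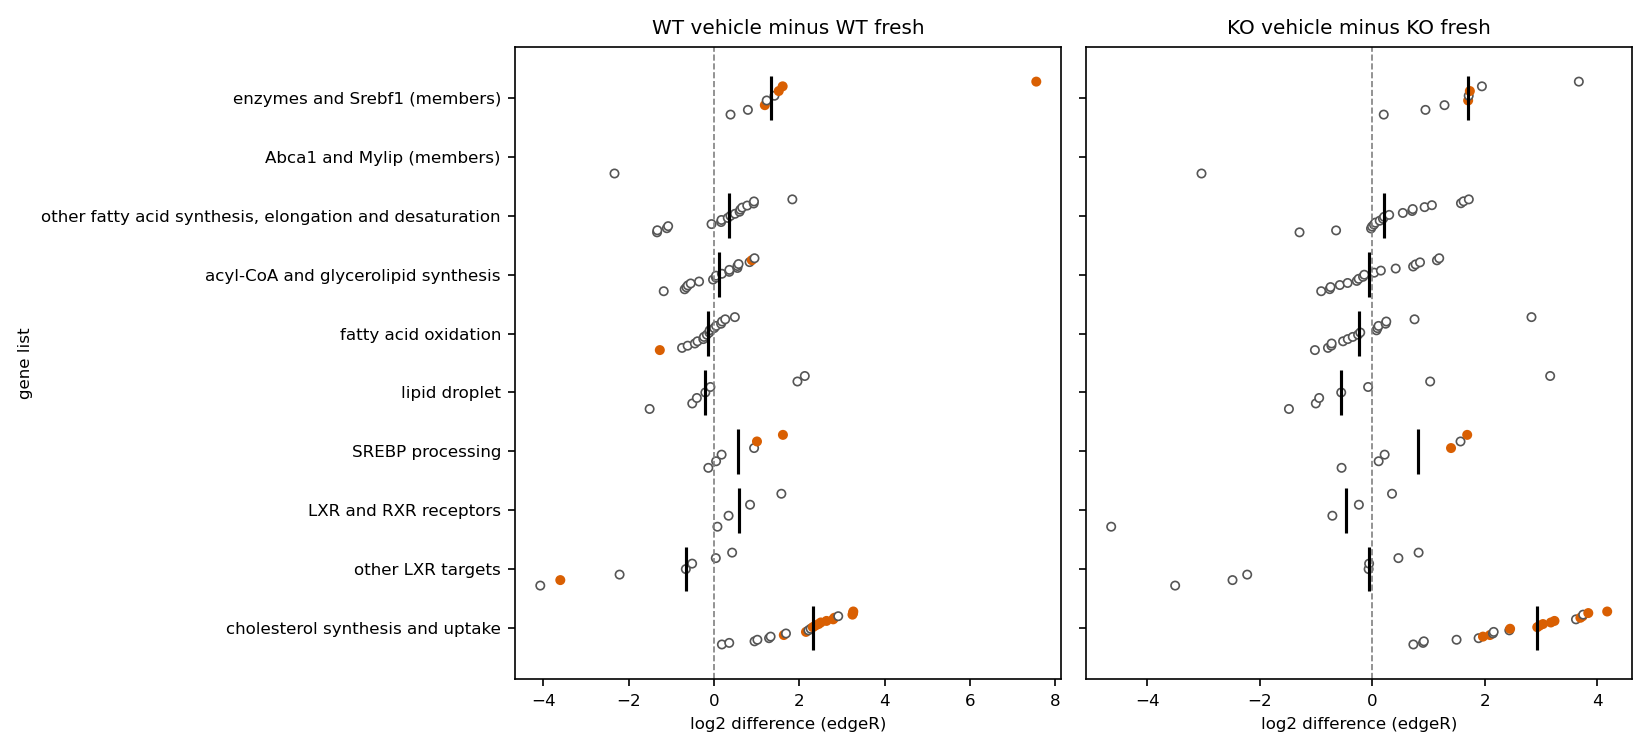
Difference between vehicle culture and fresh cells (horizontal axes, log2, edgeR) for every tested gene of the set and of 8 other lists, in WT and in KO; each point is a gene, filled points passed an adjusted p under 0.05, and black lines are list medians with genes at 0 counts in a whole group at their bound. In each panel 7 genes with 0 counts in a whole group are not drawn. The cholesterol list lies farthest to the right, with medians of 2.32 and 2.94, and the 7 enzymes with Srebf1 follow at 1.33 and 1.71.

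The genes most like the set over the 16 libraries were found by the correlation with its mean standardised log2 CPM, among the 10666 genes averaging 5 CPM or more. For the 7 enzymes these were Hmgcs1 (Pearson r = 0.97), Gcat (0.97), Fen1 (0.96), Vldlr (0.96) and Idi1 (0.96). Hmgcs1 spanned 22.3 to 37.6 CPM in fresh and 127 to 472 CPM in cultured libraries, and Vldlr, a lipoprotein receptor gene, 16.3 to 87.3 and 300.1 to 632 CPM. For Abca1 and Mylip the nearest were Il16 (0.96), Txnip (0.94), Ssbp2 (0.93), Slc18a2 (0.92) and Uba7 (0.91). Slc18a2, a vesicular monoamine transporter gene, spanned 233 to 315 CPM in fresh and 5.36 to 62.7 CPM in cultured libraries. These values describe libraries that fall into a fresh and a cultured cluster, share depth and the sparse library, and are given without a test.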

How the data were processed

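Raw read counts per gene symbol were used as deposited by the authors, 1 column per library and 25239 genes. Per the labels' protocols, RNA came from a micro-scale column kit and libraries from the SMART Ultra-Low Input kit, without molecular identifiers in the sources used here. The tools STAR 2.7.5c, featureCounts, MultiQC 1.10 and DESeq2 and the build mm10 come from the submitters' processing notes, which as used here name neither the annotation nor the treatment of multi-mapping reads.

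One edgeR quasi-likelihood model (robust, TMM scaling, filterByExpr by group, 1 mean per group) was fitted to all 16 libraries; 14124 genes were tested, and genes were called at a Benjamini-Hochberg adjusted p under 0.05. Biological variation (common coefficient) was 0.977. Standard errors were derived from the difference and its F statistic. CPM used library totals and RPKM the exon lengths of GENCODE vM21 (GRCm38). The software was edgeR 4.0.16, DESeq2 1.42.0 and limma 3.58.1, under R 4.3.3. The fit was tested on simulated counts. No 2 libraries of a group agreed within sampling noise (smallest chi-square per degree of freedom 59.8).

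The 10 genes, the lists and the tests were chosen with earlier results of these data known. From each list, up to 4 genes with the smallest adjusted p among those called with vehicle in WT or KO were named, up to 2 called elsewhere, and the 5 nearest genes to each profile. The average over cultured groups was added after the data were seen. Alternatives were DESeq2, limma voom with library quality weights, RLE scaling, no filter, a minimum count of 50, fits of the compared groups alone, 2 kinds of block and each library left out in turn.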

Additional observations from a re-analysis of the deposited data

How the results depend on the processing

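Over the 10 genes and 13 comparisons, 2104 values were recomputed under the alternatives. Of these, 2012 kept their direction and side of the threshold, or changed sign without ever being called. Another 39 lost their call, 51 gained one and 2 reversed. In all, 89 values changed sign, the 2 reversals among them. Both reversals were of Acaca without WT PSGL-1 replicate 2, which left the sparse library alone in its group: 3.77 against −0.09 for KO minus WT averaged over conditions (−0.42 to 3.77 over all libraries left out) and −1.78 against 1.11 for cultured minus fresh (−1.78 to 1.36). The number of the 10 genes called with vehicle in KO was 6 by DESeq2 (5.89% of all genes) against 3 (1.77%). For WT PSGL-1 against fresh it was 1 by limma voom (0.198% of all genes) and 0 in a fit of these groups alone (0%), against 4 (1.26%). For KO PSGL-1 against fresh it was 6 by DESeq2 (6.46%), 5 by limma voom (3.92%) and 1 in a fit of these groups alone (0.971%), against 2 (2%). The cause was not tested. With each library left out in turn, the number called ranged from 1 to 6 for vehicle against fresh in WT and 0 to 6 in KO, from 2 to 7 for PSGL-1 against fresh in WT and 0 to 6 in KO, from 0 to 3 for PSGL-1 against vehicle in WT and for KO against WT with PSGL-1, from 0 to 1 for fresh KO against WT and for the culture interaction, and from 0 to 2 for the genotype average and the PSGL-1 interaction. It stayed at 0 for PSGL-1 against vehicle in KO and for KO against WT with vehicle, and ran from 6 to 9 for the average over cultured groups. The 1 in fresh KO against WT and in the culture interaction was Scd2 without KO fresh replicate 2, and the 0 in KO came without KO fresh replicate 1. The median over the 7 enzymes and Srebf1 ranged from 1.18 to 1.88 with vehicle in KO, from 1.15 to 1.96 with PSGL-1 in KO, from −0.51 to 0.15 for fresh KO against WT and from −0.19 to 0.46 for the culture interaction, with the outlying values without KO fresh replicate 1 or 2. Over all genes, the other tools and settings called 198 to 804 genes with vehicle in WT against 231 and 206 to 832 in KO against 250, 0 to 1059 for WT PSGL-1 against fresh (178) and 124 to 913 in KO (282), 1191 to 2334 for the cultured average (1442), 0 to 229 for PSGL-1 against vehicle in WT and 0 to 41 in KO (0 each), 1 to 94, 1 to 111 and 0 to 245 for KO against WT in fresh, vehicle and PSGL-1 cells (1 each), 4 to 237 for their average (5), and 0 to 69 and 0 to 118 for the 2 interactions (0 each). Each library left out in turn gave 85 to 440, 76 to 554, 74 to 3338, 66 to 584 and 771 to 3770 genes in the 5 culture comparisons, 0 to 2955 for PSGL-1 against vehicle in WT and 0 in KO, 1 to 83, 1 to 8 and 1 to 2979 for KO against WT in fresh, vehicle and PSGL-1 cells, 4 to 2272 for their average, and 0 to 31 and 0 to 2370 for the 2 interactions; 3338, 3770, 2955, 2979, 2272 and 2370 came without WT PSGL-1 replicate 2.

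Deviations of same-numbered libraries from their group means correlated at −0.07 to 0.08 (median 0.007, 36 pairs, 0 over 0.1). Those of the same set of library numbers correlated at −0.07 to 0.10. As each mean rests on 2 or 3 libraries, these values cannot tell whether replicate numbers pair the libraries. With the replicate block 5 genes were called with vehicle in WT (Acly gained, adjusted p = 0.0410) and 2 in KO (Abca1 lost, 0.0946); with the library number block 4 and 2. Neither block changed the number called in another comparison. At 2 or 3 libraries a group and SEs above 1 for Acaca, Scd1 and Mylip, differences of several fold were within the error, and the floor of 3 counts limits what can be said of Abca1 in culture.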
